A study of Mus musculus with 25 samples.

Results

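The protocadherins are a large family of cadherin-like adhesion proteins on the surface of neurons and other cells. Of the 16220 genes in a table of RNA sequencing values from mouse dorsal root ganglia, 35 carried a symbol starting with Pcdh and were no pseudogene, and these 35 are described here. All 35 had a mean of at least 10 and entered the tests, which covered 16152 genes. They were 1 gene of the alpha cluster, 21 of the beta cluster, 1 of the gamma cluster, and 12 that lie outside the clusters: 4 of the delta-1 type, 5 of the delta-2 type and 3 others. The rule that chose them uses the gene symbol and a minimum mean.

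The ganglia, which hold the cell bodies of sensory neurons beside the spinal cord, came from 25 BXD strains, with 1 library per strain. BXD strains are recombinant inbred lines derived from C57BL6/J and DBA2/J, and each is homozygous at nearly all loci. By the ending of the strain name, 9 strains belonged to the RwwJ group and 16 to the TyJ group, and no treatment or engineered allele is given for either. All mice were 8 weeks old. Neither sex nor how many animals were pooled for a library is stated in the sources used here.

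Values were read counts that the authors had scaled to a common upper quartile, called scaled counts from here on. An estimated 19980000 to 40150000 reads stood behind a library, from the 23 libraries in which the step between low values was clear. With 1 library per strain, a spread between strains holds genotype, animal, dissection and library together, and p-values measure differences against that spread. The defining neuronal markers of the tissue were present in each library, with Prph, the intermediate filament peripherin, at 43576 to 78205 and Isl1, a sensory neuron transcription factor, at 1413 to 2478. In bulk tissue, fewer cells of a type and less RNA per cell cannot be told apart. In BXD48, an RwwJ strain, all 9 genes of a spinal cord list had their highest value. The TyJ strains BXD21, BXD36 and BXD40 had the lowest values of genes with long transcripts relative to those with short ones. Results that rest on these 4 libraries, BXD48 included, are also given without them.

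In the alpha and gamma clusters, each gene has a variable first exon of its own that is spliced to exons shared by the whole cluster, while a beta gene is a single exon with no shared part. Neurons choose few of these variable exons, and the proteins pair with their own kind across cell contacts, which is known for self-avoidance of branches and for neuron survival. Delta protocadherins are separate genes that act in axon growth, sorting and synapse formation.

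The clustered genes were at very different levels. Pcdha11 was the only alpha row, against 14 alpha genes in the annotation used for names, and had a mean of 8759.7 ± 1566 scaled counts (SD, n = 25). It was lowest in BXD36 (6056) and highest in BXD44 (11421), with a median of 8969. Pcdhgc4 was the only gamma row, against 22 annotated genes, with a mean of 4093 ± 409.9, a lowest value of 3288 in BXD1, a median of 4067 and a highest value of 5074 in BXD55. All 14 alpha genes overlap the same 3 exons at the 3′ end, and all 22 gamma genes overlap another set of 3. Whether these 2 rows count the reads of a single gene or of the whole cluster is not given in the sources used here, so no level per length is compared for them.

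The beta cluster had 21 rows, Pcdhb2 to Pcdhb22, against 22 annotated genes; Pcdhb1 was not analysed here. Their means ran between 30.9 for Pcdhb2 and 263 for Pcdhb17. Pcdhb17 ranged over 157 to 337 with a median of 267, and Pcdhb2 over 10 to 55 with a median of 31. Per kilobase of exon not shared with another gene, the mean scaled count was highest for Pcdhb9 at 74.7 and for Pcdhb12 at 73.5, and the value of Pcdhb12 rests on only 1107 unshared bases. Pcdhb17 had 56.5 per kilobase, and Pcdhb8 was lowest with 9.38. Beta genes resemble each other, so reads may be split between them: of all windows of 50 bases in a beta gene, between 1.8% and 12% also occurred in another gene.

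Outside the clusters, the delta-1 genes Pcdh1 and Pcdh9 had the highest levels. Pcdh1, also known as an adhesion protein of airway epithelium, had a mean of 2382 ± 324 scaled counts, lowest in BXD15 (1818) and highest in BXD73 (2904), with a median of 2467. Pcdh9 had 980 ± 238, with a lowest value of 496 in BXD36, a median of 995 and a highest of 1322 in BXD13. Pcdh7, whose frog relative NF-protocadherin acts in the ectoderm and in growing axons, had 698 ± 160.0, with a median of 730. The X-linked gene Pcdh11x was the lowest of the 4 with 91.8 ± 27.7. Per kilobase of unshared exon, the mean scaled count was 271 for Pcdh1, 144 for Pcdh9, 83.4 for Pcdh7 and 6.58 for Pcdh11x, so the order of these genes was the same with and without length.

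Among the delta-2 genes, Pcdh10, which is needed for axon growth through the mouse striatum, had a mean of 721 ± 119 scaled counts, a lowest value of 556 in BXD55 and a highest of 971 in BXD16. Pcdh17, which recruits actin regulators at contacts between axons, had 675 ± 137. Pcdh19, an X-linked gene of a human epilepsy, had 258 ± 60.4, and Pcdh18 had 205 ± 53.7. Pcdh8, a gene that neuronal activity induces in rat brain under the name arcadlin, was the lowest with 119 ± 30.9. Per kilobase, Pcdh17 was highest with 51.9 and Pcdh10 followed with 45.8. Of the other 3 genes, Pcdh15, a component of the tip link of hair cells, had 60.1 ± 22.1, the endothelial gene Pcdh12 had 34.8 ± 12.2 and Pcdh20 had 12.6 ± 9.47.

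**Figure D1:**
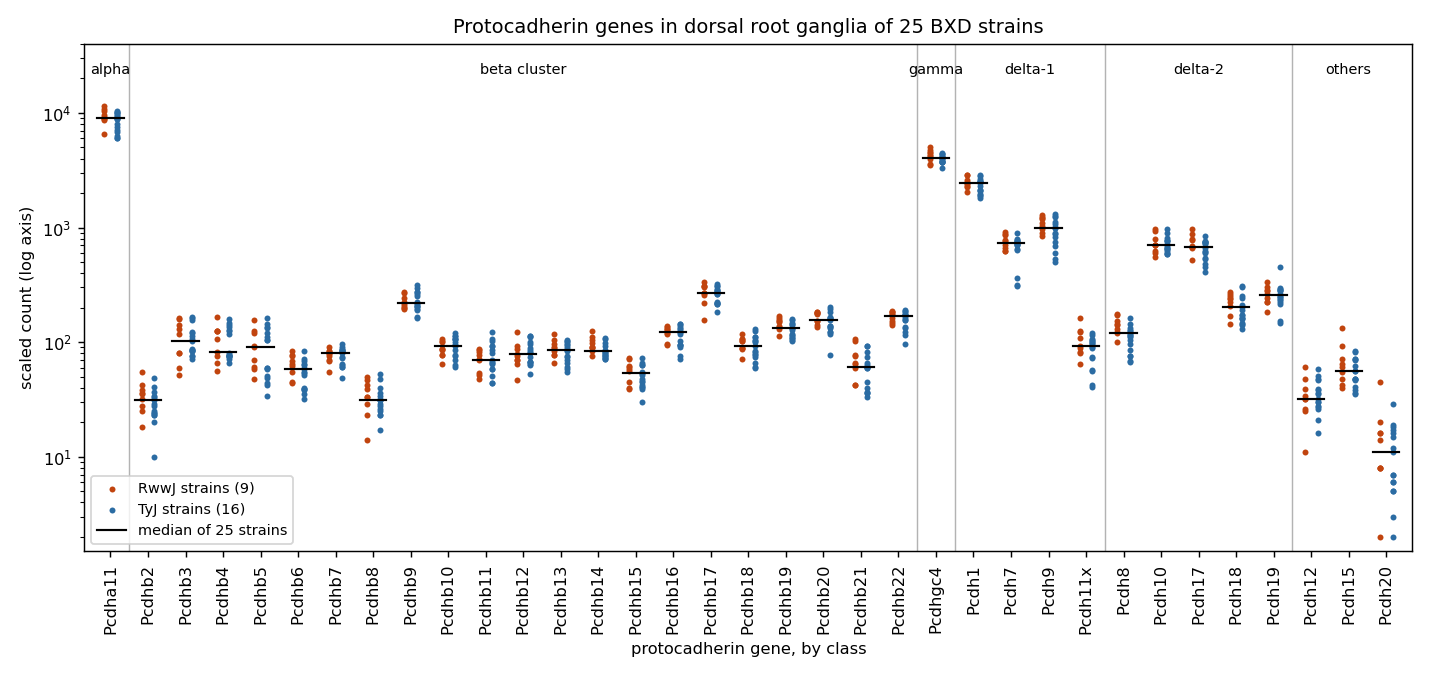
Scaled counts (log axis) of the 35 protocadherin genes, by class on the horizontal axis. Each point is a library, with the 9 RwwJ strains left of the 16 TyJ strains, and the black bar is the median of all 25. Pcdha11, with a median of 8969, and Pcdhgc4, with 4067, stand above the beta genes, and Pcdh7 shows 3 TyJ libraries at 307 to 365, below all others.

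The spread over the strains differed between the classes. Over the 35 members the SD of the log2 values had a median of 0.34, and over all genes tested one of 0.25. Set against the 500 genes nearest in level, the median member lay at percentile 51. In the beta genes it was 0.30, and the median beta gene lay at percentile 39.4 in the same ranking. It was 0.41 in the delta-1 genes, at percentile 79.4, 0.34 in the delta-2 genes, at percentile 69.6, and 0.54 in the other 3. Without BXD21, BXD36 and BXD40 the median was 0.23 in the delta-1, 0.26 in the delta-2 and 0.29 in the beta genes, so the order of these classes turned, and it was 0.22 over all genes tested. The share of the variance that counting error alone would give had a median of 23.9% in the beta genes and 2.11% in the delta-1 genes.

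Within the beta cluster, Pcdhb5 had the widest spread (SD 0.67) and Pcdhb19 the narrowest (0.21). Pcdh11x was the widest delta-1 gene (0.47) and Pcdh1 the narrowest (0.20), Pcdh8 the widest delta-2 gene (0.39) and Pcdh10 the narrowest (0.23). Pcdhgc4 had the narrowest spread of all members, 0.14. Pcdh20 had the widest, 0.98, at a level where counting error made up 26% of the variance, and among the others Pcdh15 had the narrowest, 0.46.

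The spread of Pcdh7 rested on 3 libraries. It had 307 scaled counts in BXD36, 318 in BXD40 and 365 in BXD21, all of the TyJ group, and 622 to 912 in the other 22 strains. Without these 3 strains its SD was 0.16 in place of 0.42, and that of Pcdh9 was 0.26 in place of 0.39.

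Pcdh15 and Pcdh20 were highest in BXD48. Pcdh15 had 134 scaled counts there and at most 93 elsewhere, and Pcdh20 had 45 there and at most 29 elsewhere. Without BXD48 the SD of the log2 values was 0.40 for Pcdh15, in place of 0.46, and 0.90 for Pcdh20, in place of 0.98. Pcdh17 (975) and Pcdh11x (161) also had their highest value in BXD48. The sum of the 9 spinal cord genes was 13974 in BXD48. Over the groups that sum ran between 364 and 13974 in RwwJ strains and between 247 and 5297 in TyJ strains. Of the 9, Slc32a1, Opalin and Olig2, genes of inhibitory neurons and of oligodendrocytes, were listed at 0 in some libraries, 8 at most. The part of spinal cord RNA in these values was not tested.

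Each gene's 25 ordered values were split, with at least 5 strains a side, where the sides stood farthest apart relative to the spread within them. A gene was called at 2 levels where the gap was at least 1 pooled SD and at least 0.5 on the log2 scale. By that rule 0 of 35 members were called, against 291 of 16152 genes (1.8%). The ratio of between-side to within-side variation was highest in the beta genes Pcdhb4, Pcdhb5 and Pcdhb16, while the widest gap on the log2 scale among the beta genes was that of Pcdhb21, 0.38. With no minimum on the log2 scale, a setting added after the data were seen, 6 members were called, Pcdhb4, Pcdhb5, Pcdhb6, Pcdhb16, Pcdhb17 and Pcdhb21, against 1550 of 16152 genes (9.6%). With 3 strains allowed on a side, Pcdh7 was called, its lower side being BXD21, BXD36 and BXD40; that setting called 2.25% of all genes.

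Pcdhb4 had 56 to 82 scaled counts in 13 strains and 106 to 166 in 12. In RwwJ strains it ranged over 56 to 166 with a median of 106, and in TyJ strains over 66 to 159 with a median of 79.5, so each group had strains on both sides of the split. The gap was 0.37 on the log2 scale and 2.23 times the SD within the sides. Its ratio of between-side to within-side variation was 7.22, at percentile 98.7 of all genes tested. Pcdhb5 had 34 to 70 in 12 strains and 90 to 163 in 13, with a gap of 0.36 and a ratio of 5.24, at percentile 97.8. Pcdhb16 had 71 to 103 in 9 strains and 119 to 145 in 16, with a gap of 0.21 and a ratio of 4.03, at percentile 95.4.

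Pcdhb4 and Pcdhb5, which are neighbours in the cluster, fell on the same side in 24 of 25 strains. BXD42 was the exception, with 78 scaled counts of Pcdhb4 on the lower side and 112 of Pcdhb5 on the upper side. Within the upper side of Pcdhb4 the genes had r = 0.60 and rho = 0.70 over 12 strains (permutation p = 0.0369 and 0.0128, adjusted over the 2 sides 0.0739 and 0.0255). Within the lower side they had r = 0.15 and rho = 0.42 over 13 strains (permutation p = 0.587 and 0.149). The pair and its sides were chosen from these same values. The p-values do not allow for that choice, so no conclusion is drawn from them. Pcdhb3, the neighbour on the other side, was singled out after its values were seen. It ranged over 52 to 167 and fell on the opposite side from Pcdhb4 in 21 of 25 strains. The other members shared the side of Pcdhb4 in 6 to 17 strains. BXD48, BXD6, BXD44, BXD89, BXD77, BXD11 and BXD9 had the highest sums of the 9 spinal cord genes, 2596 to 13974. In them Pcdhb4 was at 56 to 82, Pcdhb3 at 119 to 167 and Pcdhb21 at 75 to 107 (at most 74 elsewhere). BXD36, next with 2504, had 124, 87 and 36. The other strains on the lower side of Pcdhb4 had sums of 355 to 1209. The part of spinal cord RNA in these beta gene values was not tested.

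**Figure D2:**
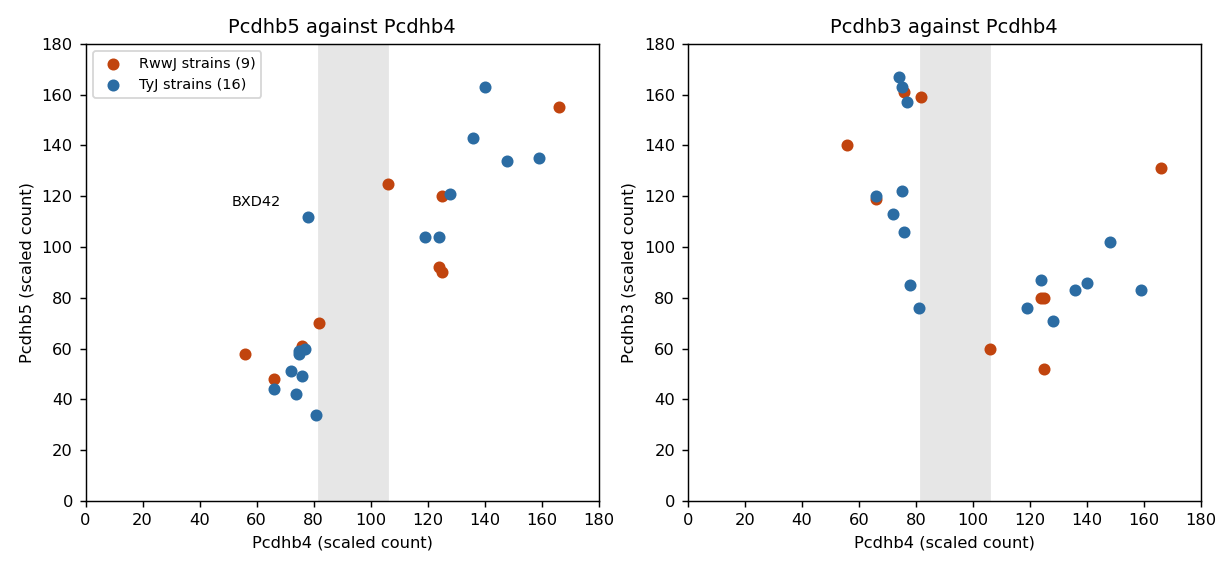
Scaled counts of Pcdhb5 (left) and Pcdhb3 (right) on the vertical axes against Pcdhb4 on the horizontal axes, 1 point per library, with RwwJ and TyJ strains in separate colours. The grey band marks the empty range of Pcdhb4 between 82 and 106; Pcdhb5 is high to its right and low to its left except in BXD42, and Pcdhb3 runs the other way.

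The genes nearest to Pcdhb4 in pattern were taken by the absolute value of Pearson's r of the log2 values over the 25 strains. Genes that ran opposite to it therefore count too, and the sign of r is not given for the genes below. Of the 20 nearest, 5 lay on chromosome 18: Pcdhb5, Gm10548, Cep120, Cd14 and Nrep. For Pcdhb5 there were 7 of 20, namely Pcdhb4, Gm10548, Nrep, Stard4, Cd14, Synpo and Cep120, and for Pcdhb3 there were 3, Pcdhb8, Pggt1b and Epb41l4a. Chromosome 18 held 406 of the 15642 annotated genes tested (2.60%). No test of these counts was made.

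Members were also compared pair by pair. Over all 595 pairs the median r was 0.28, against 0.002 over the 130435476 pairs of all genes tested, and all pairs share the same libraries. Within the beta cluster the median r was 0.26 over 210 pairs, with 0.33 for the 20 pairs of neighbours and 0.25 for the other 190. It was 0.69 over the 6 delta-1 pairs, 0.42 over the 10 delta-2 pairs and 0.54 over the 20 pairs between delta-1 and delta-2 genes. Pcdha11 had a median r of 0.50 with the other 34 members, and Pcdhgc4 one of -0.009.

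The highest r was that of Pcdhb16 with Pcdhb18, 0.89 (rho 0.83), and it was 0.84 without the 2 strains farthest from the median of Pcdhb16. Pcdhb4 with Pcdhb5 followed at r = 0.86 (rho 0.87), or 0.84 without the 2 farthest strains; this r spans both ranges of Pcdhb4, and r within each range is given above. Then came Pcdh7 with Pcdh9 at r = 0.85 (rho 0.67), or 0.69 without the 2 farthest strains, and Pcdh9 with Pcdh17 at r = 0.84 (rho 0.75), or 0.74. The permutation p of r was 1e-05 for each of these 4 pairs, the smallest that 100000 permutations can give (0.000541 adjusted over the 595 pairs). For rho it was 1e-05, 1e-05, 0.00026 and 2e-05 in that order. An adjusted permutation p of r under 0.05 was found for 115 of the 595 pairs. The share over pairs of all genes was not computed, so that count has no background. Without BXD21, BXD36 and BXD40, r was 0.84 for Pcdhb16 with Pcdhb18, 0.86 for Pcdhb4 with Pcdhb5, 0.52 for Pcdh7 with Pcdh9 and 0.66 for Pcdh9 with Pcdh17. The median over the delta-1 pairs was then 0.45, and that over the beta pairs 0.26. The lowest r was that of Pcdhb3 with Pcdhb4, -0.57 (rho -0.53, permutation p = 0.00338 and 0.0068, neither adjusted over the 595 pairs).

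**Figure D3:**
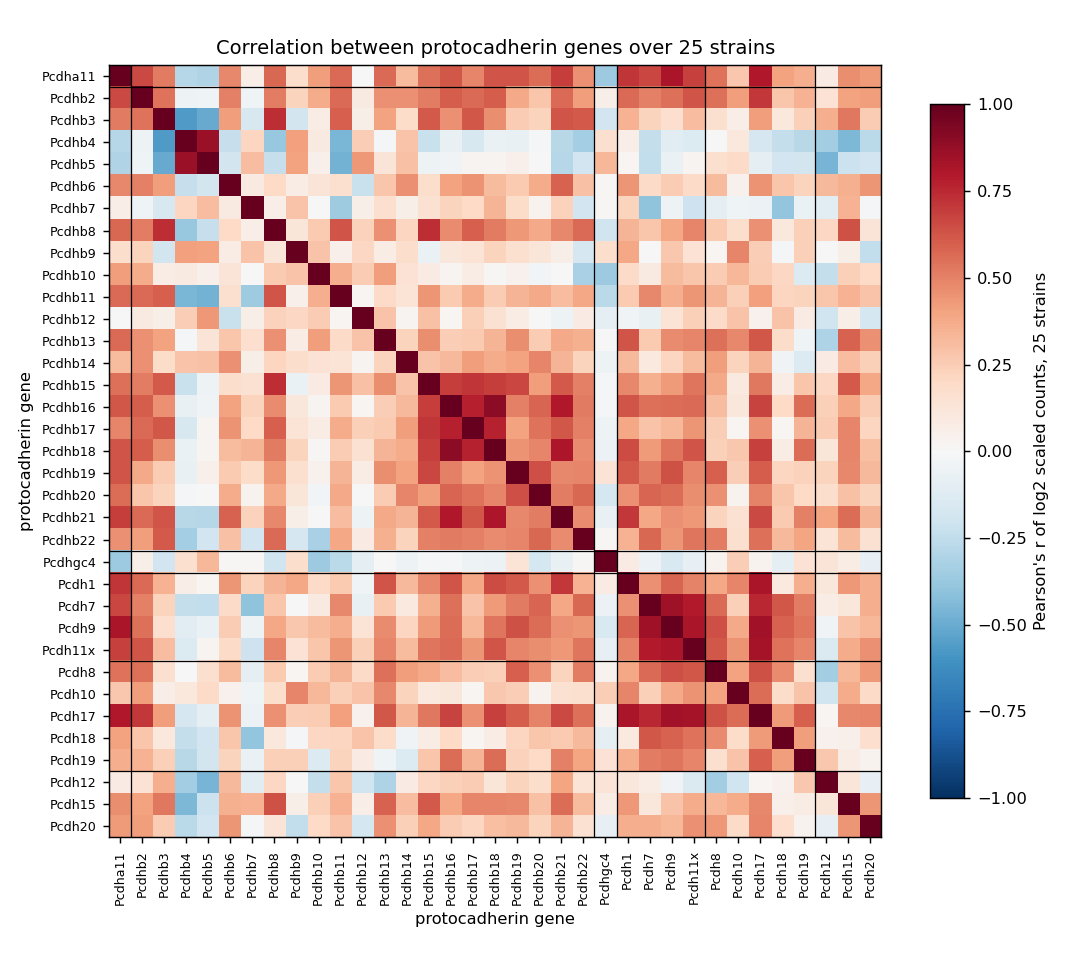
Pearson's r between the log2 scaled counts of each pair of protocadherin genes over 25 strains, with lines between the classes. The delta-1 genes and Pcdh17 form a block of high r (up to 0.85), Pcdhgc4 is near 0 with most members, and Pcdhb4 and Pcdhb5 are negative with Pcdhb3 (-0.57 for Pcdhb4).

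Pcdh7, Pcdh9 and Pcdh17 were the delta genes of the pairs just named, and their promoters are shown so that their sequences can be set side by side. Each is the stretch of 250 bases before the RefSeq start of the gene, on build GRCm38.p6, 5′ to 3′ on the strand of the gene: chr5:57717831-57718080 (+ strand) for Pcdh7, chr14:93890680-93890929 (- strand) for Pcdh9 and chr14:84443313-84443562 (+ strand) for Pcdh17. Capitals mark matches, on either strand, to the motifs named after the sequences.
Pcdh7: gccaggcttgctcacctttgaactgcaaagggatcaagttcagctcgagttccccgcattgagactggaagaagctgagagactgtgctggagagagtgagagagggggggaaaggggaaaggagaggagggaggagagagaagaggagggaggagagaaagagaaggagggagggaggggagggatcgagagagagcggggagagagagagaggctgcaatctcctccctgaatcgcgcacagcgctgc
Pcdh9: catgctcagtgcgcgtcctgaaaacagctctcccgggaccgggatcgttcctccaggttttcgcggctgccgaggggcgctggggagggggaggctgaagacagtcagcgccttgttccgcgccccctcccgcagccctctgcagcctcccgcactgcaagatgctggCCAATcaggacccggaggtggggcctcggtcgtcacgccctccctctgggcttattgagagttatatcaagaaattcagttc
Pcdh17: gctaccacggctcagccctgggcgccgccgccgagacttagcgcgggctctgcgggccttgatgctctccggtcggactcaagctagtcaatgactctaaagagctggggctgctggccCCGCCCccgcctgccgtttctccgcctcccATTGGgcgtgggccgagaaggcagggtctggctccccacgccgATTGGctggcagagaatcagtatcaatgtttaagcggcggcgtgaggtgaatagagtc
The motifs searched were the GC box GGGCGG, the TATA box TATAAA, the CCAAT box CCAAT and the E-box CACGTG, and the matches in these sequences did not overlap. Pcdh17 held 1 GC box and 2 CCAAT boxes, Pcdh9 held 1 CCAAT box, and none of the 4 was in this window of Pcdh7. Among the 9 members with a RefSeq promoter from which sequence is used here, the CCAAT box was in 8, the GC box in 4 and the TATA box in 2. Over all 27025 promoters of the same length, 34.5% held the CCAAT box, 32.9% the GC box, 13% the TATA box and 6.05% the E-box. The GC content was 58.4% for Pcdh7, 63.6% for Pcdh9 and 64.8% for Pcdh17, against a median of 52% over all promoters.

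The libraries differed in how genes with long transcripts stood relative to those with short ones. For each library a gene length contrast was taken: the median deviation of the 1561 genes with the longest exons minus that of the 1562 with the shortest, on the log2 scale, with protocadherins left out. It was -0.64 in BXD40, -0.58 in BXD36 and -0.50 in BXD21, then -0.36 in BXD1, and the highest was 0.35 in BXD68. This measure was added after the data were seen. Protocadherins are long, with 2801 to 23773 bases of exon.

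With the contrast as covariate in limma, 18 of 35 members were called, all with higher levels at a higher contrast, against 22.4% of all genes tested in that direction. Among the 11342 genes that were at least as long as the shortest member, it was 28.9%. No share was computed among genes matched to the members in length. The called members were all 4 delta-1 genes, all 5 delta-2 genes, Pcdha11, and 8 of the 21 beta genes. Pcdh9 had a change of 1.30 ± 0.14 per unit of contrast (log2 ± SE, limma adjusted p = 2.9e-08), with r = 0.88 and rho = 0.79. Pcdh17 had 0.96 ± 0.13 (limma adjusted p = 1.2e-06; r = 0.83, rho = 0.79) and Pcdh7 1.26 ± 0.19 (limma adjusted p = 4.6e-06; r = 0.80, rho = 0.58). Adjusted over the 210 pairs of member and score fitted here and in the next comparison, the permutation p of r was 0.0007, 0.0007 and 0.00126, and that of rho 0.0021, 0.0021 and 0.0628. Without the 2 strains farthest from the median contrast, BXD36 and BXD40, r was 0.79 for Pcdh9, 0.73 for Pcdh17 and 0.62 for Pcdh7. The lowest r were those of Pcdh12 (-0.06) and Pcdhb7 (-0.03), and Pcdhb4 had 0.06, or 0.45 without BXD21, BXD36 and BXD40.

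Without BXD21, BXD36 and BXD40, 9 members were called, against 15.3% of all genes: Pcdh1, Pcdh9, 3 delta-2 genes and 4 beta genes. Pcdh9 then had r = 0.71, Pcdh17 0.65 and Pcdh7 0.39. BXD36 had the lowest value of 11 members and BXD21 of 5, while BXD73 had the highest value of 7 and BXD48 of 5.

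**Figure D4:**
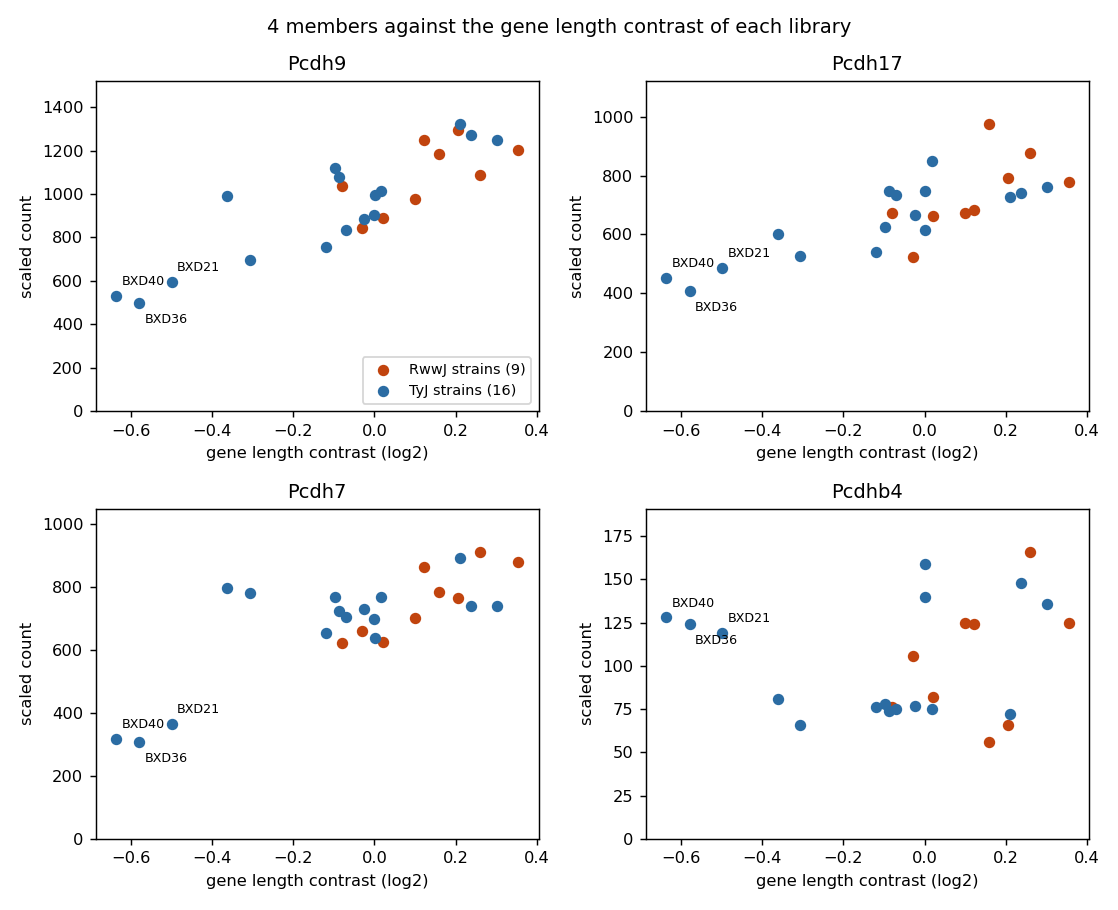
Scaled counts of Pcdh9, Pcdh17, Pcdh7 and Pcdhb4 (vertical axes) against the gene length contrast of each library (horizontal axes, log2), 1 point per library, RwwJ and TyJ strains in separate colours. Pcdh9 and Pcdh17 climb across the whole range, Pcdh7 is low in BXD21, BXD36 and BXD40, and Pcdhb4 has high values at both ends of the range.

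The ganglion holds neurons, satellite glia, Schwann cells, fibroblasts and vessels, and each member was fitted against a score for each, the mean log2 value of a marker list. For pan-neuronal genes limma called 0 members (3 at an unadjusted p under 0.05), against 5.72% of genes in the positive and 9.7% in the negative direction. For satellite glia it also called 0 members (2 unadjusted), against 4.71% and 4.87%, and for myelinating Schwann cells 0 (1 unadjusted), against 0.384% and 0.031%. In either direction, 4538 of 16142 genes had an unadjusted p under 0.05 for the pan-neuronal score. The same held for 4471 of 16146 genes for satellite glia and 1669 of 16142 for myelinating Schwann cells.

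For fibroblasts, 1 member was called, Pcdh10, which was lower where the score was higher (r = -0.65, rho = -0.61, permutation p = 0.00046 and 0.0016, adjusted 0.0107 and 0.056; limma adjusted p = 0.00566), against 4.66% of genes in that direction and 9.51% in the other. Without the 2 strains farthest in score its r was -0.55. For endothelium and mural cells, 3 members were called, all lower at higher scores, against 4.13% of genes in that direction and 8.83% in the other: Pcdhb13 (r = -0.60, rho = -0.57), Pcdh1 (r = -0.54, rho = -0.47) and Pcdh10 (r = -0.54, rho = -0.58), with limma adjusted p of 0.0257, 0.037 and 0.038. The permutation p of r, adjusted over the 210 pairs of member and score, was 0.0347, 0.071 and 0.0734 in the same order, and that of rho 0.0699, 0.236 and 0.0628. Without the 2 farthest strains r was -0.43, -0.39 and -0.49. None of the 3 was called with libraries scaled to a common total, nor with the gene length contrast as a second covariate. In that last fit 2 other members were called, Pcdh7 and Pcdh19, both higher at higher scores, against 11.4% of genes. Pcdh12, known from endothelium, had the highest r with that score, 0.37 (limma adjusted p = 0.204), followed by Pcdh19 with 0.29. It also had the highest r with the fibroblast score, 0.33, again followed by Pcdh19 with 0.28, while Pcdhb13 had -0.50.

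The members nearest to the neuronal score were Pcdhb10 (r = 0.50) and Pcdhb9 (0.38), and those farthest Pcdh19 (-0.47) and Pcdhb16 (-0.43). With satellite glia, Pcdh15 had r = 0.37, Pcdh12 0.30, Pcdh9 -0.40 and Pcdh7 -0.50. With the Schwann cell score, Pcdhb15 had 0.21, Pcdhb17 0.19, Pcdh10 -0.37 and Pcdhb2 -0.41. No permutation p of r for these members was under 0.05 once adjusted over the 210 pairs.

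These counts depended on single libraries. Without BXD48, satellite glia had 4 of 35 members called, Pcdh7, Pcdh8, Pcdh9 and Pcdh11x, all lower at higher scores, against 11.4% of genes. Their share was near that background, and the share of all genes was 4.87% with BXD48 included. Without BXD21, BXD36 and BXD40, 9 members were called for fibroblasts (13.7% of genes) and 9 for endothelium and mural cells (13.9%), all lower at higher scores, among them Pcdh1, Pcdh8, Pcdh9, Pcdh10 and Pcdh17 in both. In the same 22 strains 4 of 35 members were called for pan-neuronal genes, against 11.4% of genes. They were Pcdh7, Pcdh8, Pcdh9 and Pcdha11, all higher at higher scores, and their share was near the background.

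The RwwJ strains were compared with the TyJ strains across all genes. Limma called 0 of 35 members after adjustment and 0 of 16152 genes (0%), with 2440 genes at an unadjusted p under 0.05. At that unadjusted level 3 members stood out, against 15.1% of all genes in either direction. All 3 were higher in RwwJ, against 6.19% of all genes in that direction, so their share was near the background. Pcdh8 ranged over 100 to 175 scaled counts with a median of 142 in RwwJ strains and over 67 to 163 with a median of 111.5 in TyJ strains, so the groups overlapped. Its mean was 140.2 ± 25 in the 9 RwwJ strains and 108 ± 28 in the 16 TyJ strains (SD). The log2 difference was 0.40 with a standard error of 0.14 (limma adjusted p = 0.29), and 8 of 9 RwwJ libraries lay above the TyJ median. With the gene length contrast as a covariate the difference was 0.18.

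The other members at that level were beta genes. Pcdhb14 ranged over 76 to 124 in RwwJ (mean 96.2 ± 14.7, SD) and 71 to 108 in TyJ (mean 83.9 ± 11.9), with a log2 difference of 0.19 ± 0.09 (limma adjusted p = 0.327). Pcdhb19 ranged over 114 to 169 in RwwJ (mean 145 ± 17.2) and 102 to 160 in TyJ (mean 128 ± 18.3), with a log2 difference of 0.18 ± 0.09 (limma adjusted p = 0.328). Both pairs of ranges overlapped. With the contrast as a covariate the difference was 0.17 for Pcdhb14 and 0.04 for Pcdhb19.

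By mean alone, 29 of 35 members were higher in RwwJ, against 48.8% of all genes, with a median difference of 0.12 over the members and -0.005 over all genes. All 9 delta genes and 16 of the 21 beta genes were among the 29. The gene length contrast moved with the groups: it ran between -0.08 and 0.35 in RwwJ strains, with a median of 0.12, and between -0.64 and 0.30 in TyJ strains, with a median of -0.08. With the contrast as a covariate 14 of 35 members were higher in RwwJ, against 47.3% of all genes, with a median of -0.03, and 0 members had an unadjusted p under 0.05. Of the delta genes, 2 of 9 were then higher, both delta-2 genes. Without BXD21, BXD36 and BXD40, 27 of 35 members were higher, against 47.7% of all genes, with a median of 0.07.

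**Figure D5:**
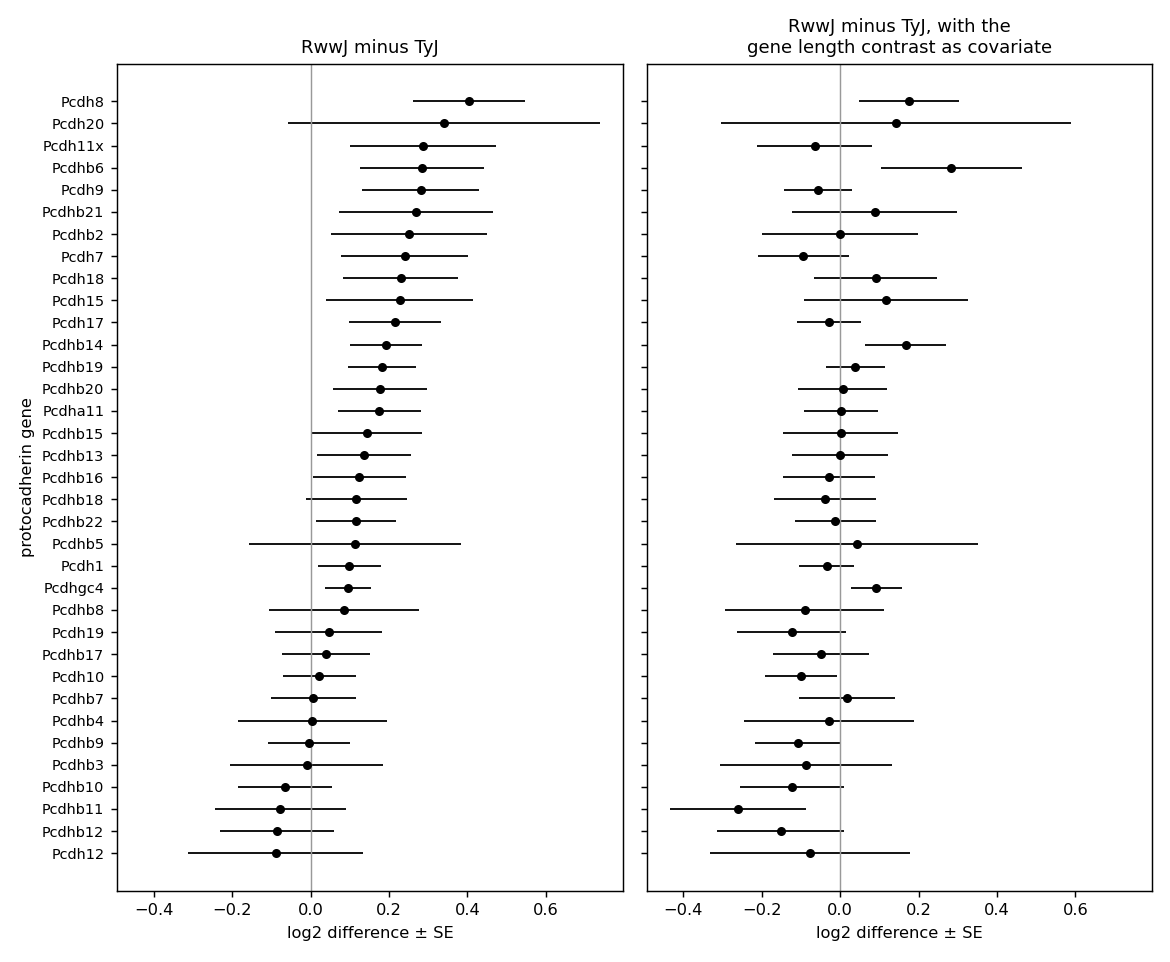
Log2 difference of RwwJ minus TyJ strains with its standard error (limma) for the 35 members, without (left) and with (right) the gene length contrast of each library as a covariate, both in the order of the left panel. On the left 29 members lie above 0, with Pcdh8 highest at 0.40; on the right 14 do.

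Other genes of the pathway were compared between the same groups, in 4 lists chosen by function, and 0 genes were called in each. Of 18 regulators of clustered protocadherin promoters, 11 had a higher mean in RwwJ and 2 an unadjusted p under 0.05. These were the cohesin subunit genes Rad21, with a log2 difference of -0.12 ± 0.05 (limma adjusted p = 0.296), and Stag2, with -0.10 ± 0.04 (0.306). Ctcf, the factor that binds these promoters together with cohesin, had -0.10 ± 0.05. Of 22 cytoplasmic partners, 7 were higher and 6 had an unadjusted p under 0.05, among them Brk1, a subunit of the WAVE actin regulator (-0.19 ± 0.07, limma adjusted p = 0.29).

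Of 14 other large atypical cadherins listed, 13 were tested. All 13 were higher in RwwJ, against 48.8% of all genes, and 4 had an unadjusted p under 0.05, against 15.1%. None of these lists was compared with the gene length contrast as a covariate. The part of transcript length in their differences was not tested. Clstn3 and Clstn2, which encode the synaptic adhesion proteins calsyntenins, were at 0.44 ± 0.11 and 0.28 ± 0.07 (limma adjusted p = 0.29 for both). Of 14 classical cadherins, 12 were higher and 4 had an unadjusted p under 0.05, with Cdh22 at 0.92 ± 0.32 (limma adjusted p = 0.29) and Cdh4 at 0.30 ± 0.13 (0.306). The median difference was 0.18 over the atypical and 0.08 over the classical cadherins, -0.04 over the partners and 0.02 over the regulators.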

How the data were processed

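RNA of dorsal root ganglia was sequenced in 25 libraries, extracted with Trizol and prepared with the TruSeq RNA v2 kit, per the labels' protocols. CASAVA 1.8.0, TopHat2 2.0.9 and HTSeq and the builds NCBIM37 and mm9 are named in the submitters' processing notes. The deposited values are a score, whole numbers that the authors scaled and rounded: the third quartile lay between 1478 and 1478.25 in every library. Totals were 24637919 to 26860283. No count model was fitted, since the raw counts were not used here.

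Symbols matched 15697 of 16220 identifiers, and 523 had none. Names, chromosomes and exon lengths came from GENCODE M21, on a later build than the files; promoters came from RefSeq. Genes with a mean of at least 10 were tested on log2(scaled count + 1) in R 4.3.3 with limma 3.58.1 (prior variance trended on level, two-sided p, Benjamini-Hochberg adjustment over all genes, threshold 0.05). Log2 differences understate changes of low genes. Correlations used 100000 permutations. The fits were tested on simulated data. Strains were grouped by the ending of their name. The members and lists were chosen with earlier results of these data known. Genes named in the text were, by rule, those of highest and lowest mean and of widest and narrowest spread in each class, the 3 with the largest ratio of variation between to within the sides of a split, those with an unadjusted p under 0.05 for RwwJ against TyJ, the 2 highest and 2 lowest r per score, and the 2 of smallest p in each other list; 1 gene of these lists is not reported here. Other genes named beside a count, and Pcdhb3, were chosen after their values were seen.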

Additional observations from a re-analysis of the deposited data

Results flagged for a closer look

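Pcdh20 was the only one of the 35 members with a library far from the others in the RwwJ group. Its value in BXD48 was 45 scaled counts, the next highest RwwJ library had 20, and the gap was 0.581 of the range of the 9 RwwJ libraries, above Dixon's critical value of 0.493. The ratio was taken on scaled counts, not on the log2 values used elsewhere. Chance alone flags about 1 in 20 such groups, and all 35 members were examined, so 1 flagged member is no more than that rate gives. The TyJ group, with 16 libraries, was not examined in this way. BXD48 also had the highest sum of spinal cord genes, 13974, and the part of these in the Pcdh20 value was not tested.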

How the results depend on the processing

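Of 66 recomputed counts and medians, 49 stayed, 16 moved and 1 reversed; the cause was not tested. The count of 0 members called between RwwJ and TyJ held in every setting tried, and of 45 recomputed differences of Pcdh8, Pcdh9, Pcdh17, Pcdhb14 and Pcdhb19 none passed the threshold and 43 kept their sign. With the gene length contrast as covariate Pcdh9 was at -0.056 in place of 0.28 and Pcdh17 at -0.028 in place of 0.22. The count of members with a higher mean in RwwJ was 29, and 14 with the gene length contrast as covariate. Members called for a score changed as follows. Without BXD48 there was 1 for pan-neuronal genes (higher), 4 for satellite glia and 2 for fibroblasts (all lower). Over all genes, 945 of 16142 were then called higher for the pan-neuronal score. Those called lower were 1842 of 16146 for satellite glia and 768 of 16143 for fibroblasts. Without BXD21, BXD36 and BXD40 there were 4 members called for pan-neuronal genes, 9 for fibroblasts and 9 for endothelium and mural cells. For the gene length contrast there were 9 in place of 18. With that contrast as a second covariate there were 2 for pan-neuronal genes (1 higher and 1 lower) and 1 for satellite glia (higher). There were 2 for fibroblasts (1 higher and 1 lower) and 2 for endothelium and mural cells, both higher in place of 3 lower. In those fits 4102 of 16142 genes were called for the pan-neuronal score and 538 of 16146 for satellite glia. For fibroblasts it was 3281 of 16143 genes and for endothelium and mural cells 2826 of 16142. Scaled to a common total, endothelium and mural cells had 0 members called. The median change of all genes per unit of the pan-neuronal score was then -0.15 in place of -0.02. At 2 levels there was 1 member with 3 strains allowed a side and 6 with no minimum gap in log2. The median r of the delta-1 genes was 0.449 without the 3 libraries and 0.219 for residuals on the contrast, in place of 0.69. For such residuals the median r was 0.14 over all 595 pairs of members, in place of 0.28, and 0.19 over the beta pairs, in place of 0.26. Over all pairs of genes tested it was 0.003. Over all genes, limma called 6 between the groups with array weights and 3 without BXD48, none of them a member. Counting error had the highest share of the variance in Pcdhb14 (52.2%) and Pcdhb7 (49.4%). No paired analysis was possible because the labels number no replicates across groups.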
